A study of Homo sapiens with 18 samples.

Results

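Genes whose symbol ends in -AS1 were followed through 18 count libraries of NCI-H1975, a human lung adenocarcinoma cell line. Of 1646 genes with such a name among the 61487 counted, 565 had at least 100 counts summed over the 9 input mRNA libraries, DSP-AS1 being left out. The 300 with the highest sum are described here as the members. The members were thus chosen by their mRNA counts. The sums ran down to 325 counts for RAB35-AS1, the last inside, with SLC16A1-AS1 at 322 counts just outside and RPL30-AS1 at 20175 counts on top. The libraries form 3 arms, each with 3 poly(A)-selected mRNA libraries and 3 ribosome footprint libraries: sgDAMP cells, labelled as carrying a DAMP knockout; Scramble cells; and sgControl cells, labelled as CRISPR control. Cells for the footprint libraries were harvested after cycloheximide at 100 µg/ml, which halts elongating ribosomes. DAMP is, by the title of the series, a peptide encoded by DSP-AS1, and the stated purpose was to find long non-coding RNAs with coding potential and mRNAs under the control of the peptide. The labels give neither clones nor separate cultures, so p-values measure only the spread between these libraries.

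A name ending in -AS1 is given to a non-coding gene that lies on the strand opposite a named gene, here called its partner. Such antisense RNAs may overlap the body of the partner or start beside its promoter and run away from it, and individual cases are known to act on the transcription, splicing or stability of the partner or as hosts of small RNAs. They are as a rule scarce, and some carry short open reading frames on which ribosomes are found. Because an overlapping antisense RNA shares its genomic sequence with the partner, its count depends on whether reads were assigned by strand. The strand setting is not given in the sources used here, so reads of a member and of a gene overlapping it cannot be told apart.

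Gene counts per mRNA library were 17171514 to 17455799 in sgDAMP cells, 10859527 to 12424884 in Scramble cells and 17098397 to 17464782 in sgControl cells. Per footprint library they were 6207783 to 6864945 in sgDAMP, 1035159 to 1302852 in Scramble and 6845899 to 7840852 in sgControl cells. The Scramble mRNA libraries stood apart: 42.5% to 43.2% of their reads fell on no annotated feature, against 1.1% to 1.32% in sgDAMP and 1.15% to 1.43% in sgControl mRNA. Reads that fell on several genes at once made up 3.13% to 3.21% of Scramble mRNA reads, against 13.7% to 14.7% in sgDAMP and 13.7% to 14.3% in sgControl. Footprint libraries of sgDAMP, and those of sgControl, differed among themselves by less than sampling noise (chi-square per degree of freedom, averaged over the lowest 99 percent of genes, of 0.91 in sgDAMP and 0.909 in sgControl), so each of these groups was counted as 1 sample. DSP-AS1, a check of the labels, had 0, 1 and 1 footprints in sgDAMP against 335, 291 and 226 in Scramble and 175, 176 and 216 in sgControl libraries, while its mRNA stood at 18.6 to 19.4 in sgDAMP, 20.1 to 26.0 in Scramble and 17.2 to 19.2 CPM in sgControl cells (counts scaled to each library's total of gene counts). Keratins KRT8, KRT18 and KRT7 were abundant in the mRNA of every arm. Keratin KRT19 averaged only 0.772 CPM in sgDAMP, 0.172 CPM in Scramble and 0.637 CPM in sgControl mRNA. CDH1, another epithelial marker, averaged 43.4 CPM in sgDAMP, 116 CPM in Scramble and 27.2 CPM in sgControl mRNA. EPCAM, also epithelial, averaged 0.519 CPM in sgDAMP, 0.814 CPM in Scramble and 0.249 CPM in sgControl mRNA. The lung markers NKX2-1, NAPSA and SFTPB averaged at most 0.444 CPM in sgDAMP, 0.601 CPM in Scramble and 0.79 CPM in sgControl mRNA, and the leukocyte markers PTPRC and CD3E were at 0 in every library. CD14, another marker of that list, averaged 3.91 CPM in sgDAMP, 0.749 CPM in Scramble and 4.48 CPM in sgControl mRNA, with 0.595 CPM in sgDAMP, 11.1 CPM in Scramble and 0 in sgControl footprints, and LYZ averaged at most 0.563 CPM in any group.

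Of the 300 members, 287 were listed in RefSeq (GRCh38.p14), 285 of them as lncRNA genes, and 298 had a counted partner. The partner was protein-coding for 294. Member and partner could be placed for 285 pairs: their spans overlapped in 239 and were clear of each other in 46. In all, 245 members overlapped the span of at least 1 protein-coding gene and 42 overlapped none. Strands were known for both genes of 193 pairs, and they were opposite in 193. In 76 pairs the starts lay within 1000 bases of each other, 33 of them divergent, with the partner's start upstream of the member's start, and 43 with the partner's start downstream of it, so that the first bases of both genes overlap.

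Promoter sequences of 221 members were found in RefSeq as windows from 250 bases before to 50 bases after the start. The dinucleotide CG, whose dense clusters mark the promoters of broadly expressed genes, occurred at least 15 times in 157 of the 221 windows (71.0%) and in 68 of the 76 head-to-head members (89.5%), against 48.8% of all 27305 gene promoters and 16.2% of 1583 promoters of LINC-named lncRNAs. CG reads the same on both strands and was counted without overlap. The motif TATAAA, on either strand, was present in 4.52% of member windows and 12.0% of all windows. Members were chosen by their mRNA counts, while the other promoters were taken whatever their expression. The part of that choice in these shares was not tested. The 5 windows below belong to members on which the later results turn, and capitals mark every CG.
TUBA1B-AS1: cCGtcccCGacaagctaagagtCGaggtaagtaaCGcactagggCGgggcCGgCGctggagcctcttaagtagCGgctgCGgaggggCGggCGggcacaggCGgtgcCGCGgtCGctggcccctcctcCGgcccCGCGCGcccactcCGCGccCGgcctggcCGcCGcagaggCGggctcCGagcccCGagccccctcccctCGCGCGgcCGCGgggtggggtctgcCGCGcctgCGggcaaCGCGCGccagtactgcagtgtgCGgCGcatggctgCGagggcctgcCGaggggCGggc
UBQLN1-AS1: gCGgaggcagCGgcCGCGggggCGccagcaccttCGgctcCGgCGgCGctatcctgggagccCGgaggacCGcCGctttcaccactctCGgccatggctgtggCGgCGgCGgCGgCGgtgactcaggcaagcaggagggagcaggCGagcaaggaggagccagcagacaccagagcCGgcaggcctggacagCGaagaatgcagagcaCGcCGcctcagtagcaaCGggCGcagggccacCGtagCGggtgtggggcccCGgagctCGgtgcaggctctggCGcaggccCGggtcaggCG
RAB35-AS1: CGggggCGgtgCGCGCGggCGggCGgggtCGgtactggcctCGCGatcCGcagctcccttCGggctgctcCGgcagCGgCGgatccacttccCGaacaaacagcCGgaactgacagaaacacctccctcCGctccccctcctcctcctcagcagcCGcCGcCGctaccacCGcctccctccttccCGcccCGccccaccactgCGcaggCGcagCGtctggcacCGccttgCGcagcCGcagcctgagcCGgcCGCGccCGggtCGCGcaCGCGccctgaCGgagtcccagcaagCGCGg
PRKG1-AS1: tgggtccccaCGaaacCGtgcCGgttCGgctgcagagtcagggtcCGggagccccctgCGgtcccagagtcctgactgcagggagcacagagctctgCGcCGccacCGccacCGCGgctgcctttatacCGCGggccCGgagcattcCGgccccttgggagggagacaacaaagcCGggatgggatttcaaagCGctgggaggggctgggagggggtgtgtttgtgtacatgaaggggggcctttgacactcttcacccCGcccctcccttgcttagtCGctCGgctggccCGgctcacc
ZSCAN16-AS1: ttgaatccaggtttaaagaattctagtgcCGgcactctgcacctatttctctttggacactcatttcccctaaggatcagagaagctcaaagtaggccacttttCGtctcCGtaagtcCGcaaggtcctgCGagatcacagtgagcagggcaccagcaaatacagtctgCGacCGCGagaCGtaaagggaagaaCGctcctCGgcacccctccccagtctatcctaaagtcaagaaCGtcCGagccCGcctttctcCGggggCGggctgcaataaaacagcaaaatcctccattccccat
The windows lie on GRCh38.p14 at chr12:49131356-49131655 (plus strand) for TUBA1B-AS1, chr9:83707585-83707884 (plus strand) for UBQLN1-AS1, chr12:120116657-120116956 (plus strand) for RAB35-AS1, chr10:52314079-52314378 (minus strand) for PRKG1-AS1 and chr6:28137267-28137566 (minus strand) for ZSCAN16-AS1. TUBA1B-AS1 holds 43 CG, RAB35-AS1 41, UBQLN1-AS1 32, PRKG1-AS1 21 and ZSCAN16-AS1 16. TUBA1B-AS1 starts 211 bases from the start of TUBA1B, which encodes an alpha-tubulin, and RAB35-AS1 starts 154 bases from that of RAB35, a GTPase of endocytic recycling, both divergently. The start of UBQLN1, a ubiquilin that brings proteins to the proteasome, lies 123 bases inside UBQLN1-AS1. PRKG1-AS1 is far from a head-to-head arrangement: it starts beyond the end of PRKG1, a cGMP-dependent protein kinase, and overlaps that end.

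As a group, members were scarce in sgDAMP and sgControl mRNA and abundant in Scramble mRNA. Their summed level was 966 to 1238 CPM in sgDAMP, 10235 to 10407 CPM in Scramble and 780 to 997 CPM in sgControl libraries. The median member averaged 0.98 CPM in sgDAMP, 16.3 CPM in Scramble and 0.915 CPM in sgControl mRNA, and 150 members reached 1 CPM in sgDAMP, 296 in Scramble and 143 in sgControl mRNA. All LINC-named genes, with no minimum count, totalled 1141 to 1327 CPM in sgDAMP, 1519 to 1617 CPM in Scramble and 819 to 1091 CPM in sgControl libraries. That gap was far smaller, but the members, unlike these genes, were chosen by their mRNA counts. In footprints the 300 members summed to 363 to 382 CPM in sgDAMP, 222 to 442 CPM in Scramble and 292 to 306 CPM in sgControl libraries, and there the Scramble range overlapped the other arms.

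**Figure D1:**
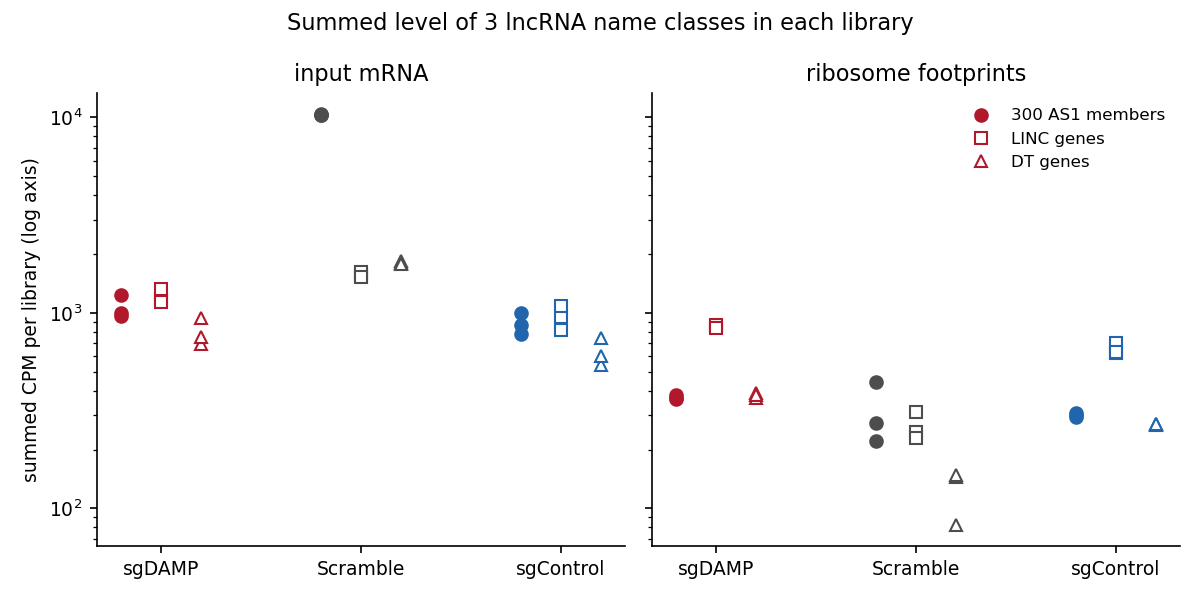
Summed level (CPM, log axis) of the 300 AS1 members (circles), LINC-named genes (squares) and DT-named divergent transcripts (triangles) in each library, mRNA on the left and footprints on the right; 1 symbol is 1 library. Members stand at 10235 to 10407 CPM in Scramble mRNA and at no more than 1238 CPM in the mRNA of both other arms. Their footprints lie at 363 to 382 CPM in sgDAMP, 222 to 442 CPM in Scramble and 292 to 306 CPM in sgControl libraries.

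The knockout comparison asks which transcripts differ in level without the peptide. No member passed it. Of 169 members with enough counts, 0 were called between sgDAMP and sgControl mRNA by edgeR's quasi-likelihood test at a Benjamini-Hochberg adjusted p under 0.05, with a background of 0.0% called among 14032 tested genes (0 genes). An unadjusted p under 0.05 was reached by 8 members (4.73%), against 5.28% of all tested genes. DESeq2 called 0 members and 21 genes in all, and limma-voom called 0 members and 0 genes. The median member change was 0.16 on the log2 scale, against 0.03 for all tested genes, 0.20 for LINC genes and 0.23 for DT genes. The 3 sgDAMP libraries lay wholly above the 3 sgControl libraries for 15 members (8.88%; 5.91% of all genes) and wholly below for 5 (2.96%; 5.53% of all genes). The spread was wide. Member counts varied 11.8 times as much as sampling noise among sgDAMP and 6.06 times among sgControl mRNA libraries (mean chi-square per degree of freedom). For all genes the values were 64.7 in sgDAMP and 38.4 in sgControl mRNA, and this measure grows with the counts.

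RAB35-AS1 had the highest fitted change of the members with a mean of at least 1 CPM. It stood at 3.55, 2.92 and 2.26 CPM in sgDAMP mRNA, against 0.806, 1.05 and 1.20 CPM in sgControl mRNA. The groups did not overlap, and the log2 change was 1.36 ± 0.40 (SE), with an adjusted p of 0.862 in edgeR. RAB35 itself stood at 183, 154 and 177 CPM in sgDAMP mRNA and 186, 177 and 152 CPM in sgControl mRNA, which overlap.

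Other members near the top were POC1B-AS1, named after a centriole protein, CCDC18-AS1, ILRUN-AS1 and TBX2-AS1, named after a T-box transcription factor. TBX2-AS1 had 5.65, 6.30 and 8.62 CPM in sgDAMP mRNA against 3.23, 3.63 and 2.52 CPM in sgControl mRNA, with a log2 change of 1.0 ± 0.37 (SE). Its groups did not overlap. POC1B-AS1 at 1.21 ± 0.47, CCDC18-AS1 at 1.08 ± 0.63 and ILRUN-AS1 at 1.0 ± 0.42 had libraries of both arms that overlapped. At the other end were SAP30L-AS1 at -0.86 ± 0.54, NUP153-AS1 at -0.78 ± 0.41, ATP6V0E2-AS1 at -0.73 ± 0.36, ALDH1A3-AS1 at -0.66 ± 0.44 and LIPE-AS1 at -0.63 ± 0.60. NUP153-AS1 was at 1.40, 1.15 and 1.22 CPM in sgDAMP mRNA against 1.90, 2.28 and 1.66 CPM in sgControl mRNA. All of these members had an adjusted p of at least 0.862 in edgeR.

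**Figure D2:**
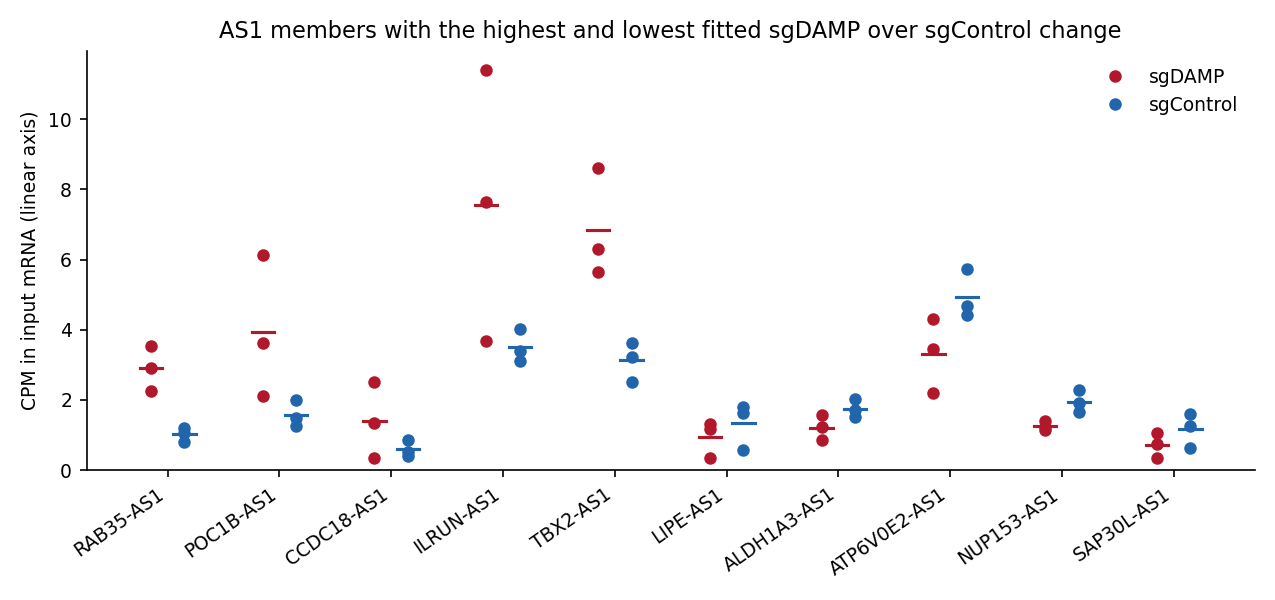
CPM in input mRNA (linear axis) of the 10 members with the highest and lowest fitted sgDAMP over sgControl change among members with a mean of at least 1 CPM; points are libraries, short lines are means of 3. RAB35-AS1 and TBX2-AS1 show sgDAMP libraries above all sgControl libraries, and NUP153-AS1 shows the opposite, while no member passed the test.

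Of a list of 20 AS1 genes often studied in cancer, 13 were members. Of these, 11 were tested between sgDAMP and sgControl mRNA and 0 passed in either direction in edgeR, with a median log2 change of 0.18. FGD5-AS1 stood at 32.2, 46.5 and 28.5 CPM in sgDAMP, 121, 134 and 106 CPM in Scramble and 14.2, 18.8 and 32.7 CPM in sgControl mRNA. OIP5-AS1, the human counterpart of the conserved lncRNA Cyrano, stood at 11.8, 20.8 and 11.7 CPM in sgDAMP, 165, 182 and 131 CPM in Scramble and 3.34, 8.48 and 13.7 CPM in sgControl mRNA. EPB41L4A-AS1, a host of a small nucleolar RNA, averaged 29.9 CPM in sgDAMP, 93.3 CPM in Scramble and 25.1 CPM in sgControl mRNA. AFAP1-AS1, described as raised in several carcinomas, was at 0 in the 3 sgDAMP libraries, at 92.6, 92.2 and 87.7 CPM in Scramble and at 0.230, 0 and 0.172 CPM in sgControl mRNA. The sgDAMP and sgControl libraries overlapped for FGD5-AS1, OIP5-AS1 and EPB41L4A-AS1, and the Scramble libraries lay above both for these 4 members.

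Footprints report RNA bound by ribosomes, and those counted on a member may include footprints of a gene that overlaps it. Of the 300 members, 114 had no footprint in sgDAMP, 198 none in Scramble, 117 none in sgControl libraries, and 87 none in any of the 9. The 10 highest members made up 39.3% of the summed footprint level in sgDAMP, 76.4% in Scramble and 41.3% in sgControl, and 33.0% of the summed mRNA level in sgDAMP, 31.1% in Scramble and 33.6% in sgControl. The 3 members with the most footprints, in sgDAMP as in sgControl, were KRT10-AS1, DLGAP1-AS1 and SVIL-AS1, named after a keratin, a synaptic scaffold and the actin-binding supervillin. KRT10-AS1 had 205, 269 and 213 footprints in sgDAMP, 3, 3 and 3 in Scramble and 190, 198 and 201 in sgControl libraries. DLGAP1-AS1 had 112, 139 and 132 footprints in sgDAMP, 8, 6 and 5 in Scramble and 123, 165 and 150 in sgControl libraries. Its partner DLGAP1 had 0 in all 9 libraries.

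Footprints of 86 members, those with at least 30 over sgDAMP and sgControl together, could be compared between the 2 arms. With each arm summed to 1 sample there is no replicate test, and a member was called past the line when the scaled ratio was at least 2, or at most 0.5, and its exact 95% counting interval excluded 1. By that rule 14 members were higher in sgDAMP (16.3%), against a background of 7.15% of 14289 genes, and 9 were lower (10.5%), against 5.36%. At like depth the shares lay closer: among genes with 30 to 99 footprints they were 21.6% higher and 15.7% lower for 51 members and 18.2% higher and 13.4% lower for 3396 genes in all. Among genes with 100 to 2000 footprints they were 8.57% higher and 2.86% lower for 35 members, 3 and 1 in number, and 4.89% higher and 3.16% lower for 7819 genes. The intervals lay above 1 for 25 members (29.1%; 27.3% of all genes) and below 1 for 15 (17.4%; 29.0% of all genes). Scaling by total counts, which moves the median gene by 0.23, gave 20 members higher (23.3%, against 11.1% of genes). It gave 6 lower (6.98%, against 3.46% of genes), with higher calls at 76.2% of all gene calls against 57.1% on the TMM scale. Without sgDAMP footprint replicate 2, 5 members were lower (6.67%, against 5.12% of genes). Without sgControl footprint replicate 2, 5 were lower as well (6.41%, against 4.49% of genes).

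UBQLN1-AS1 showed the largest ratio. It had 12, 7 and 10 footprints in sgDAMP libraries and 0, 0 and 1 in sgControl libraries, a ratio of 28.0 (4.64 to 1142). No library of one arm reached the range of the other, though each arm counts as 1 sample. UBQLN1 itself had 197, 267 and 245 footprints in sgDAMP and 210, 252 and 261 in sgControl libraries, a ratio of 0.945 (0.851 to 1.05), and the mRNA of UBQLN1-AS1 was at 0.582, 1.32 and 1.16 CPM in sgDAMP and 0.921, 0.643 and 0.916 CPM in sgControl. The interval of UBQLN1 thus included 1, and the mRNA libraries of UBQLN1-AS1 overlapped between the arms.

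LAMA5-AS1, named after a laminin chain of basement membranes, had 10, 9 and 10 footprints in sgDAMP and 3, 2 and 0 in sgControl libraries, a ratio of 5.59 (2.14 to 18.5), and LAMA5 had 1054 in sum in sgDAMP and 898 in sgControl libraries (1.13; 1.03 to 1.24). SDCBP2-AS1 had 42 footprints in sum in sgDAMP and 8 in sgControl (5.06; 2.35 to 12.5), HERPUD2-AS1 46 in sgDAMP and 11 in sgControl (4.03; 2.06 to 8.63) and GAS6-AS1, named after a ligand of TAM receptor kinases, 56 in sgDAMP and 16 in sgControl (3.37; 1.91 to 6.30). For UBQLN1-AS1 and these 4 members, named for their high ratios, each sgDAMP library lay above every sgControl library. The libraries of an arm count as 1 sample, so this adds no replicate support. The other members past the line on this side were ZNF407-AS1, CALCRL-AS1, PCBP1-AS1, NOP14-AS1, MZF1-AS1, SBNO1-AS1, SLC38A4-AS1, SMARCA5-AS1 and ZBED5-AS1, with ratios of 3.01 down to 2.12. The deepest of them, ZBED5-AS1, had 45, 44 and 52 footprints in sgDAMP and 14, 26 and 24 in sgControl libraries.

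On the lower side, PRKG1-AS1 had 2, 2 and 4 footprints in sgDAMP and 13, 14 and 10 in sgControl libraries, a ratio of 0.208 (0.0839 to 0.455). Its partner PRKG1 had 0 footprints in sum in sgDAMP and 1 in sgControl libraries. RXYLT1-AS1, named after a glycosyltransferase that modifies dystroglycan, had 7, 5 and 6 footprints in sgDAMP and 18, 31 and 34 in sgControl libraries (0.209; 0.118 to 0.351), although no mRNA read was counted on it in any of the 6 libraries of these arms. Its partner RXYLT1 had 698 footprints in sum in sgDAMP and 881 in sgControl (0.764; 0.691 to 0.845).

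WARS2-AS1, named after the mitochondrial tryptophan-tRNA synthetase, had 16 footprints in sum in sgDAMP and 45 in sgControl (0.343; 0.181 to 0.618). TMEM147-AS1, NAPA-AS1, ZFPM2-AS1 and NUTM2A-AS1 had ratios between 0.386 and 0.442. ALDH1A3-AS1 lay at the line with 12, 8 and 11 footprints in sgDAMP and 18, 22 and 20 in sgControl libraries (0.498; 0.312 to 0.781), and ALDH1A3, a retinaldehyde dehydrogenase, had 400 in sum in sgDAMP and 489 in sgControl (0.789; 0.689 to 0.902). Across 60 pairs with enough counts, the footprint ratio of member and partner lay on the same side of 1 in 31, and Spearman's rho was -0.06, a description over pairs that share libraries.

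**Figure D3:**
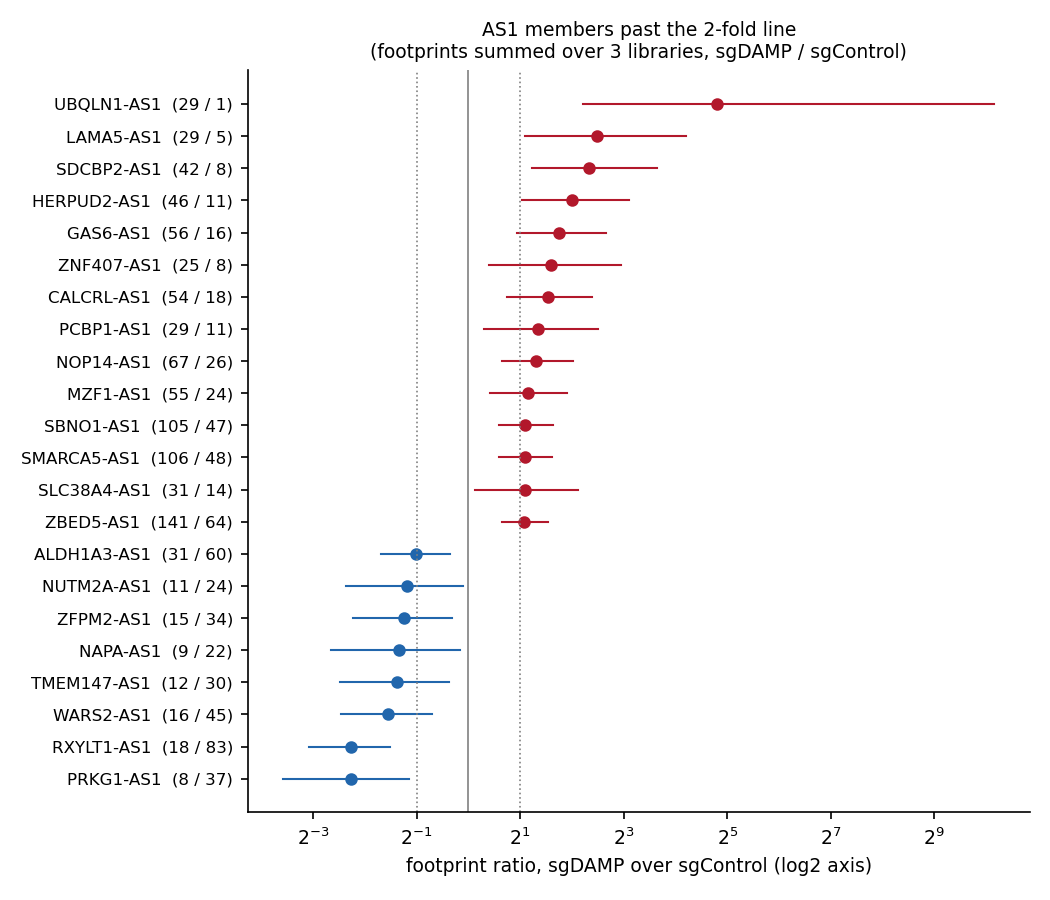
Footprint ratio of sgDAMP over sgControl (log2 axis) for 22 of the 23 members past the 2-fold line, with exact 95% counting intervals; numbers in parentheses are footprints summed over 3 libraries, sgDAMP then sgControl, the solid line marks a ratio of 1 and dotted lines mark 2 and 0.5. UBQLN1-AS1 (29 and 1) has the largest ratio and PRKG1-AS1 (8 and 37) the smallest, and the intervals are wide at these counts.

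Set against mRNA in one fit over both assays, in which each footprint sum is assumed to vary like the mRNA libraries, 0 of 196 members were called between sgDAMP and sgControl at an adjusted p under 0.05 in edgeR, with 0.258% of 19357 genes called (0.031% higher and 0.227% lower). An unadjusted p under 0.05 was reached by 28 members (14.3%), against 5.47% of all genes. Members and genes were not matched for depth here. With at least 10 counts in every library, such a p was reached by 3 of 77 members and 315 of 10323 genes. The larger share of members thus rested on those with fewer counts. On the 196 members DESeq2 called 0, with 62 genes called in all. Limma-voom called 3 members higher (1.53%) and 2 lower (1.02%), against 0.455% of genes in each direction. The member with the lowest adjusted p was KTN1-AS1, named after kinectin, an anchor of kinesin on the endoplasmic reticulum. It had 1, 0 and 1 footprints in sgDAMP and 8, 7 and 10 in sgControl libraries, with a log2 change of -3.82 ± 0.98 (SE) relative to its mRNA and an adjusted p of 0.269. UBQLN1-AS1 had a log2 change of 4.46 ± 1.42 (SE) here and an adjusted p of 0.574. STARD7-AS1, with 3, 5 and 6 footprints in sgDAMP and none in sgControl libraries, had the highest change among members with a mean of at least 1 CPM, and its fitted size depends on the zeros.

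Footprints against mRNA in Scramble cells address which RNAs are engaged by ribosomes. The mRNA of these cells entered the choice of members, so the comparison is a description. In Scramble footprint libraries 95.7% to 95.8% of reads were not assigned to a gene. That share was 69.7% to 70.0% in sgDAMP and 65.8% to 66.4% in sgControl footprint libraries. Over all genes, Scramble footprint libraries varied 16.0 times as much as sampling noise (mean chi-square per degree of freedom). Lower footprint than mRNA levels were called for 207 of 292 members (70.9%, against 27.4% of 14432 genes). Higher ones were called for 5 (1.71%, against 17.1% of genes). Among genes with at least 100 summed mRNA counts, lower calls made up 20.7% of LINC, 29.4% of DT and 42.9% of -AS2 to -AS9 genes. They made up 10.1% of AS1-named genes outside the members, DSP-AS1 included. Higher calls made up 7.21%, 2.52%, 0% and 0.505% of these classes in this order. The part of mRNA depth in these shares was not tested. RPL30-AS1, TUBA1B-AS1, MIF-AS1, VIM-AS1 and SLC25A5-AS1 had 0 footprints in the 3 libraries beside 20170, 18948, 18116, 12800 and 7865 mRNA counts. Against a floor of 3 counts over the group, the footprints of RPL30-AS1 were at least 92.7-fold lower than its mRNA on the TMM (trimmed mean of M values) scale. Their Scramble mRNA stood between 221 and 590 CPM in the single libraries, and no footprint was detectable at this depth.

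At least 10 footprints in each Scramble library were found on 2 members, ZSCAN16-AS1 and IGFL2-AS1. They are 0.667% of members, against 10.7% of all genes with at least 100 summed mRNA counts. At that minimum the share was 0% of LINC, 0.521% of DT and 0.376% of AS1-named genes outside the members, DSP-AS1 included. No Scramble footprint was counted on 66.0% of members, 55.2% of LINC, 56.2% of DT and 79.7% of these AS1-named genes. ZSCAN16-AS1, named after a zinc finger gene with a SCAN domain, had 111, 227 and 112 footprints beside 28, 50 and 37 mRNA counts in Scramble libraries, a log2 difference of 8.22 ± 0.31 (SE). In the other arms it had 2, 8 and 6 footprints in sgDAMP and 7, 7 and 5 in sgControl, with 72, 144 and 107 mRNA counts in sgDAMP and 98, 94 and 88 in sgControl. Its footprints thus outnumbered its mRNA counts in Scramble libraries and were fewer than them in both other arms. Its partner ZSCAN16, whose span lies within that of ZSCAN16-AS1, had 44, 49 and 36 footprints in sgDAMP, 4, 0 and 0 in Scramble and 37, 45 and 44 in sgControl libraries.

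IGFL2-AS1, named after a member of the insulin-growth-factor-like family, had the highest CPM of all members in sgDAMP and sgControl mRNA. Its span is chr19:46189029-46203062 on GRCh38.p14 and overlaps that of IGFL2. It stood at 57.4, 107 and 76.4 CPM in sgDAMP, 44.7, 48.3 and 48.9 CPM in Scramble and 63.6, 73.9 and 97.1 CPM in sgControl mRNA. Its footprints were 44, 36 and 31 in sgDAMP, 65, 51 and 47 in Scramble and 17, 23 and 30 in sgControl libraries. In Scramble cells its log2 difference between footprints and mRNA was 2.86 ± 0.21 (SE) on the TMM scale, and -0.02 when libraries were scaled by their total counts. DLGAP1-AS1, PPP1R14B-AS1 and LIMD1-AS1 were likewise higher in footprints on the TMM scale, at 2.36, 1.26 and 1.07 in this order, and lower under total-count scaling, at -0.51, -1.60 and -1.77. Without Scramble footprint replicate 2 only 3 members were called higher, PPP1R14B-AS1 standing at 0.17 and LIMD1-AS1 at 0.93, and without replicate 1 LIMD1-AS1 stood at 0.68. Total-count scaling moves the median gene of this comparison by -2.85 and called 287 members lower (98.3%; 90.4% of genes) and 1 higher (0.342%; 3.33% of genes).

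**Figure D4:**
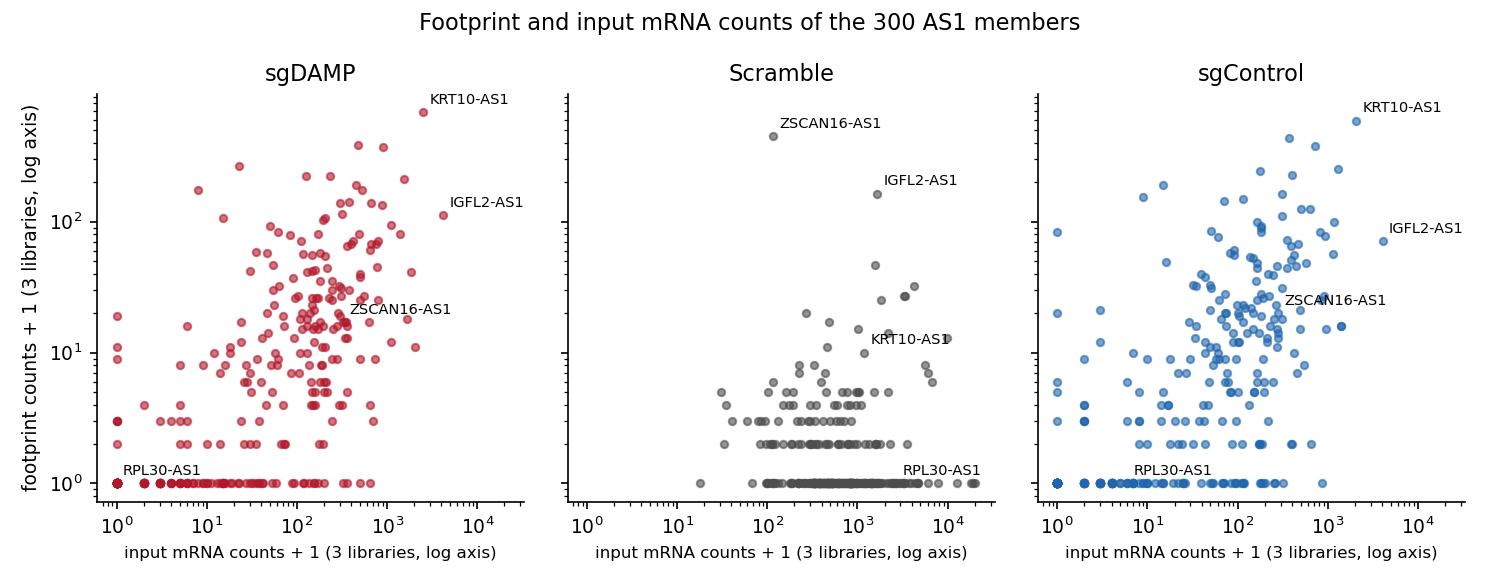
Footprint counts against input mRNA counts of the 300 members, each summed over 3 libraries with 1 added (log axes), in sgDAMP, Scramble and sgControl cells; 1 point is 1 member. Most members lie on the floor of the Scramble panel, where ZSCAN16-AS1 (450 footprints) and IGFL2-AS1 (163) stand out, and KRT10-AS1 leads both other panels.

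Footprints without matching mRNA were seen on few members. Under 20 mRNA counts and at least 30 footprints over sgDAMP and sgControl together were found for 2, RXYLT1-AS1 and PITPNA-AS1. PITPNA-AS1, named after a phosphatidylinositol transfer protein, had 63, 49 and 63 footprints in sgDAMP and 52, 58 and 42 in sgControl libraries, with no mRNA library of these arms above 0.289 CPM. PPP1R14B-AS1, named after a phosphatase inhibitor, had 75, 96 and 94 footprints in sgDAMP and 60, 66 and 65 in sgControl libraries. Its partner PPP1R14B had 15, 27 and 21 footprints in sgDAMP and 10, 12 and 10 in sgControl libraries. The mRNA of PPP1R14B stood at 628, 818 and 832 CPM in sgDAMP and 639, 762 and 609 CPM in sgControl, against at most 0.521 CPM for PPP1R14B-AS1. What share of the footprints on the member came from the partner was not tested.

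Scramble and sgControl cells are both controls by their labels. Their mRNA libraries chose the members, so these values are descriptive. By edgeR 233 of 300 members were called higher in Scramble mRNA, with 46.1% of 16360 genes called in that direction, and 37 were called lower, with 33.4% of genes. The median member difference was 3.88 on the log2 scale, against 0.42 for all tested genes, -0.32 for LINC genes and 0.02 for DT genes. The median was 3.22 for genes named -AS2 to -AS9 and 3.23 for AS1-named genes outside the members. The latter had at least 100 summed mRNA counts and include DSP-AS1. Total-count scaling moved the median gene by 0.83, more than the size of the LINC and DT medians. It called 255 members higher (85.0%, against 59.3% of genes) and 16 lower (5.33%, against 19.3% of genes). Higher calls then made up 75.5% of all gene calls, against 58.0% on the TMM scale. For 222 members the 3 Scramble libraries held more counts than the other 6 mRNA libraries together. Only 149 members reached 100 counts over the 6 sgDAMP and sgControl libraries, and among those 82 were higher (55.0%) and 37 lower (24.8%), with a median of 0.76.

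RPL30-AS1, named after a protein of the large ribosomal subunit, had 558, 590 and 584 CPM in Scramble mRNA and 0, 0 and 0.286 CPM in sgControl mRNA, and it was at 0 in the 3 sgDAMP libraries. RPL30 had 685, 727 and 700 CPM in Scramble and 153, 188 and 204 CPM in sgControl mRNA. TUBA1B-AS1, whose span is clear of every coding span, had 529, 530 and 571 CPM in Scramble and 0.115, 0.175 and 0.229 CPM in sgControl mRNA. VIM-AS1, named after the intermediate filament protein vimentin, had 360, 339 and 404 CPM in Scramble and 0.346, 0.175 and 0.115 CPM in sgControl mRNA. No Scramble library of these members came near the sgControl range.

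MIF-AS1 had 491, 525 and 541 CPM in Scramble and 0.115, 0 and 0.0573 CPM in sgControl mRNA, while MIF, which encodes a secreted cytokine, had 15.4, 14.1 and 18.5 CPM in Scramble and 0.864, 0.643 and 0.687 CPM in sgControl mRNA. PAPPA-AS1, named after a metalloproteinase that cleaves insulin-like growth factor binding proteins, had 4643 counts in Scramble and 0 in sgControl, at least 1291-fold higher against a floor of 3 counts over the group. PHLDA1-AS1 had 4544 counts in Scramble and 0 in sgControl (at least 1264-fold), CD44-AS1, named after the hyaluronan receptor, 2963 in Scramble and 0 in sgControl (at least 824-fold), and HNRNPK-AS1, named after an RNA-binding protein, 2937 in Scramble and 0 in sgControl (at least 817-fold).

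Members lower in Scramble than in sgControl mRNA were fewer and less extreme. ADIRF-AS1 had 3.69, 2.09 and 1.29 CPM in Scramble and 16.9, 15.8 and 17.4 CPM in sgControl mRNA, a log2 difference of -3.65 ± 0.33 (SE), and PAX8-AS1, named after a lineage transcription factor, had 2.15, 3.22 and 1.20 CPM in Scramble against 4.55, 4.68 and 8.53 CPM in sgControl mRNA (-2.24 ± 0.37). The Scramble libraries lay below the sgControl libraries for both. LURAP1L-AS1 (-3.66), ZNF566-AS1 (-2.74), SERTAD4-AS1 (-2.64), SRP54-AS1 (-2.45), KMT2E-AS1 (-2.38), FOXN3-AS1 (-2.34), BNC2-AS1 (-2.25) and SNAI3-AS1 (-1.75) completed the 10 lowest. LURAP1L-AS1 alone among the 10 had overlapping libraries, with 0.859, 0.322 and 0.276 CPM in Scramble and 0.403, 3.33 and 7.16 CPM in sgControl mRNA.

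In this set of members, chosen by counts that include Scramble mRNA, the size of the difference went with the position of the member. Among the 149 members with enough counts over the sgDAMP and sgControl mRNA libraries alone, the median log2 difference was 0.76. A split by position was not tested for them, nor was the part of the choice in the split that follows. The 245 members whose span overlaps a coding span had a median log2 difference between Scramble and sgControl of 4.28, and the 42 clear of coding spans had 0.84. Among AS1-named genes outside the members the medians were 3.61 for 228 that overlap and 0.05 for 24 that do not. Among DT genes they were 1.17 for 76 that overlap and -0.34 for 101 that do not, and among LINC genes -0.36 for 15 and -0.31 for 164. Levels of members and partners were also set side by side: over 239 overlapping pairs Spearman's rho between the mean CPM of member and partner was -0.27 in sgDAMP, 0.49 in Scramble and -0.27 in sgControl mRNA, and over 46 pairs with clear spans it was -0.23 in sgDAMP, 0.08 in Scramble and -0.29 in sgControl mRNA. These are descriptions across genes of the same libraries, in CPM not corrected for length, so they compare arms and not the 2 genes of a pair. The median overlapping member had 2.86% of its partner's CPM in sgDAMP, 38.9% in Scramble and 2.83% in sgControl mRNA. The shares of reads on no feature and on several genes differed between these libraries as given above, and their part in the difference was not tested. The knockout comparison shares the sgControl mRNA libraries with this one.

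**Figure D5:**
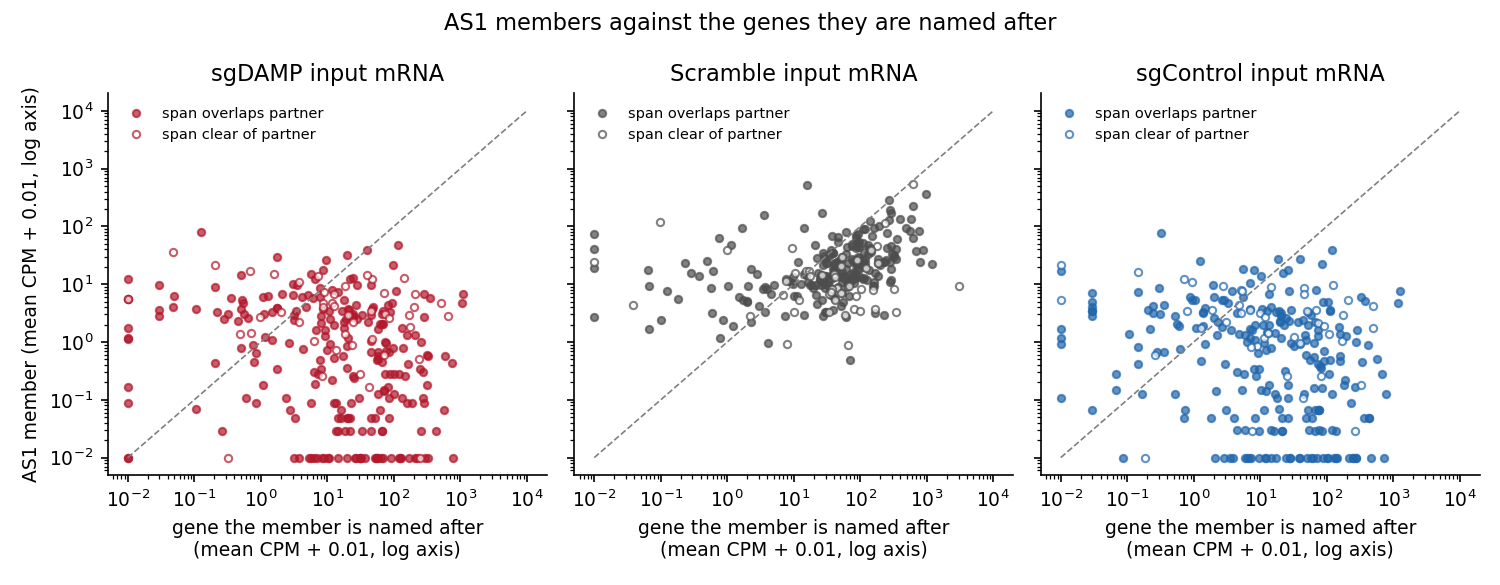
Mean CPM of each member against that of the gene it is named after, with 0.01 added (log axes), in sgDAMP, Scramble and sgControl mRNA; filled points are pairs with overlapping spans, open points are pairs clear of each other, the dashed line marks equal levels. In Scramble mRNA the overlapping members rise with their partners (rho 0.49), and in both other arms many sit at 0 (rho -0.27).

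In sgDAMP against sgControl mRNA, the fitted differences of member and partner had the same sign in 65 of 140 pairs in which both were tested, with a Spearman's rho of 0.03. For the 59 head-to-head pairs among them the count was 31 and rho was 0.07. More or fewer cells expressing an RNA and more or less RNA per cell cannot be told apart in these bulk libraries.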

How the data were processed

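The deposited values are raw counts per gene as HTSeq writes them. The authors trimmed, aligned and counted reads with Trimmomatic 0.30, HISAT2 2.1.0, SAMtools 1.10 and HTSeq 0.11.2 on GRCh38, per the submitters' processing notes. The sources used here name neither the annotation release nor the strand setting. Symbols were matched for 61369 of 61487 gene IDs. The members, gene lists and rules for named genes were chosen with earlier results of these data known. Genes were kept by filterByExpr (minimum count 10), scaled by TMM within each assay (over both assays in Scramble cells), and tested with edgeR 4.0.16 in R 4.3.3 over all genes, two-sided, with Benjamini-Hochberg adjustment at 0.05. DESeq2 1.42.0, limma 3.58.1, other scalings and filters, a replicate block and leaving out each library were alternatives. Footprints of sgDAMP and of sgControl were summed, with exact Clopper-Pearson 95% intervals that, like floors of 3 counts over a group, cover counting error only. The SE of a log2 change is its size over the square root of F. Scripts were tested on simulated data. Named were the 10 members with the highest mRNA sum, up to 10 highest and lowest called members per comparison (5 each by fitted change with a mean of at least 1 CPM where under 5 were called), members with 10 footprints in each Scramble library or the most footprints, and 20 well-studied genes. 1 member past the footprint line is not reported here.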

Additional observations from a re-analysis of the deposited data

How the results depend on the processing

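In the mRNA comparison of sgDAMP with sgControl, 0 members were called under every alternative run, the replicate block included, and leaving out each library gave 0 to 0. The replicate numbers did not pair the samples (same-number correlations of 0.459, -0.308 and -0.527 between sgDAMP and sgControl mRNA). In the interaction of footprints and mRNA, limma-voom called 3 members higher and 2 lower of 196, footprint libraries taken as replicates 6 higher and 2 lower of 167 (1.56% of genes higher, 1.13% lower), and these with a replicate block 0 higher and 1 lower (0.704% and 0.579% of genes); leaving out libraries gave 0 to 0. Of the footprint ratios between sgDAMP and sgControl, a minimum of 10 summed counts gave 25 of 143 members higher (17.5%, against 9.77% of genes). It gave 18 lower (12.6%, against 7.64% of genes). Leaving out each library gave 10 to 15 higher (6.32% to 7.1% of genes) and 5 to 8 lower (4.49% to 5.38% of genes). The count of 5 lower came without sgDAMP or without sgControl footprint replicate 2. With these libraries as replicates edgeR called 18 of 57 members higher (31.6%; 27.7% of genes) and 8 lower (14.0%; 28.0% of genes), with and without the replicate block. In Scramble footprints against mRNA, total-count scaling left 1 member higher (ZSCAN16-AS1) and turned IGFL2-AS1 to -0.02 (adjusted p 0.946), DLGAP1-AS1 to -0.51 (0.190), LIMD1-AS1 to -1.77 (0.000393) and PPP1R14B-AS1 to -1.60 (0.00464). At least 10 counts in every library left 2 members, both higher, with 34.0% of 1630 genes higher and 36.1% lower. The replicate block left 3 higher (1.03%, against 13.1% of genes) and 160 lower (54.8%, against 19.5%). Leaving out each library gave 3 to 5 higher (11.8% to 20.3% of genes) and 141 to 203 lower (17.4% to 28.7% of genes). In Scramble against sgControl mRNA, total-count scaling called 16 lower (5.33%, against 19.3% of genes). The filter on every library called 90 higher of the 148 members it left (60.8%, against 39.9% of genes). It called 29 lower (19.6%, against 37.4% of genes). Leaving out each library gave 221 to 237 higher (42.0% to 49.4% of genes) and 31 to 40 lower. The lower calls were 31 without Scramble mRNA replicate 1 (30.2% of genes) and 40 without sgControl mRNA replicate 3 (35.1% of genes). Restricting members to those with 100 counts over the 6 sgDAMP and sgControl mRNA libraries, chosen after seeing the data, gave 82 higher there, and 3 higher (2.13%; 17.1% of genes) and 63 lower (44.7%; 27.4% of genes) of 141 tested in Scramble footprints against mRNA, with a median of -3.17. Total-count scaling moved the median gene by 0.13 in sgDAMP against sgControl mRNA, 0.23 in footprints, 0.83 in Scramble against sgControl and -2.85 in Scramble footprints against mRNA, and DESeq2 size factors moved it by -0.11 in Scramble against sgControl. Under it, higher calls made up 76.2% of all footprint calls, 75.5% in Scramble against sgControl and 3.56% in Scramble footprints against mRNA, against 57.1%, 58.0% and 38.4% on the TMM scale. The causes of these shifts were not tested. Low footprint counts limit what could be seen: 87 members had no footprint in any library.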
